A study of Mus musculus with 20 samples.

Results

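The Igkv genes are the variable (V) genes of the mouse immunoglobulin kappa light chain. They were taken as the 160 features whose symbol starts with Igkv, of 31053 genes in each matrix, and were followed in the B cells and plasma cells of 20 single-cell RNA-sequencing (scRNA-seq) libraries from 13 mice. Counts are unique molecular identifiers (UMIs), which mark single captured RNA molecules. A B cell had at least 3 UMIs of Cd79a and Cd79b together, the signaling chains of the B-cell receptor, none of Cd3d, Cd3e or Cd3g, and fewer than 20 of Jchain. A plasma cell had at least 20 UMIs of Jchain, the joining chain of secreted antibody, and at least 2 of Derl3 and Sdc1. All cells had at least 1500 UMIs and at most 10% mitochondrial UMIs, which left 34057 B cells and 2783 plasma cells. A cell was called kappa-typed when it held at least 3 Igkv UMIs and 1 gene took more than 50% of them. By this rule 31027 B cells and 2777 plasma cells were typed.

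Unselected live cells were taken from 13 spleens, of which 5 were Eµ-PRMT5, 4 were Eµ-PRMT5/TCL1 and 4 were Eµ-TCL1. The 7 sub-mandibular lymph nodes came from 4 Eµ-PRMT5/TCL1 and 3 Eµ-TCL1 mice. The mice were labelled C57BL/6N, although the study's methods place Eµ-TCL1 mice on a C57BL/6J background. They were taken when ill enough to meet removal criteria, and 7 of them gave both tissues. Eµ-PRMT5 mice carried a human PRMT5 cDNA and Eµ-TCL1 mice a human TCL1 cDNA, each driven in B cells by a mouse heavy chain variable promoter with the Eµ heavy chain enhancer. Eµ-PRMT5/TCL1 mice carried both cDNAs, and every library came from a mouse with at least 1 transgene, so that no group was free of one. The labels give no age. The Eµ-PRMT5 line that the study followed in full came from 1 founder. The study's methods name E4474 as 1 of 3 founders, and that number also labels the mouse of Eµ-PRMT5 spleen 3. Whether all 5 Eµ-PRMT5 spleens came from the same line was not established. Mice are named below by the number in their label, with M0955-RT spelled as given there. Which of M0317 and M0701 gave Eµ-PRMT5 spleens 4 and 5 is uncertain, because V gene use tabulated by the study for these mice is exchanged between them relative to the labels followed here. Both belong to the same group, so no comparison between groups depends on it.

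A developing B cell joins an Igkv gene to a J segment on mouse chromosome 6, and the joined exon is spliced to the constant exon Igkc. As a rule the cell keeps the product of a single kappa allele, and it turns to a lambda light chain when kappa joining fails. The V gene of a B cell is inherited by its daughters, and the clones of a leukemia like chronic lymphocytic leukemia (CLL) appear as many cells with the same gene. The light chain pairs with a heavy chain whose V region comes from an Ighv gene, and in CLL some pairs are known to recur between individuals.

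In the GENCODE vM21 annotation of GRCm38 all 160 identifiers were found, at chr6:67555497-70704177, and they comprised 100 functional V genes and 60 pseudogenes. In transcriptional orientation, 75 lay on the same strand as Igkj1, the first J segment, and 85 on the opposite strand. UMIs were seen in B cells for 126 of the 160 genes, and 89 were the typed gene of at least 1 B cell. These 89 comprised 87 of the 100 functional genes and 2 of the 60 pseudogenes, each of the latter in 1 cell. At least 5% of the typed cells of some library fell to 17 genes, and 11 genes led a library.

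The 3′ ends of the V exons are shown for the genes that the results below turn on, because this end carries the start of the third complementarity-determining region (CDR3). Each line gives the last 60 bases of the V exon on the coding strand, from GENCODE transcripts of GRCm38, with capitals from the codon of the last conserved cysteine to the exon's end.
Igkv12-89 (exon chr6:68834846-68835143, minus strand): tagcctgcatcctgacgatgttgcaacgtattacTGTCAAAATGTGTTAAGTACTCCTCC
Igkv4-91 (exon chr6:68768555-68768863, minus strand): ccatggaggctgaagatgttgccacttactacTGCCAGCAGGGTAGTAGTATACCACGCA
Igkv14-126 (exon chr6:67896345-67896642, plus strand): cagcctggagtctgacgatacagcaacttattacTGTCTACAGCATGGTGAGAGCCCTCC
Igkv1-117 (exon chr6:68121515-68121827, plus strand): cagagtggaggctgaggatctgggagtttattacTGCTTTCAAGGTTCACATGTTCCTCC
Igkv1-110 (exon chr6:68270955-68271267, plus strand): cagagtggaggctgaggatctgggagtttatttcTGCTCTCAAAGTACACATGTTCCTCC
Igkv6-15 (exon chr6:70406469-70406766, minus strand): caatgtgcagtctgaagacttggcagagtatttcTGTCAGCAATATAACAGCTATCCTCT
Igkv6-14 (exon chr6:70434952-70435249, minus strand): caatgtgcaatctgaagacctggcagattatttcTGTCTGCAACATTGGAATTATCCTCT
Igkv17-127 (exon chr6:67861362-67861659, plus strand): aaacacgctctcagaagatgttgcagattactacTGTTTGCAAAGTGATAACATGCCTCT
Igkv5-39 (exon chr6:69900424-69900721, minus strand): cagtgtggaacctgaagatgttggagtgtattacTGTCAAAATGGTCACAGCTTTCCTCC
Igkv10-94 (exon chr6:68704508-68704805, minus strand): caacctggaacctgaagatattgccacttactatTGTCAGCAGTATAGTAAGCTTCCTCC
Igkv10-95 (exon chr6:68680551-68680848, plus strand): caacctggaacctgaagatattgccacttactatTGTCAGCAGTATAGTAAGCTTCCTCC
Igkv3-2 (exon chr6:70698758-70699067, plus strand): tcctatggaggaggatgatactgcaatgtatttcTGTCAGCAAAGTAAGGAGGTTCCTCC

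Some members are near copies of each other, which limits how surely UMIs can be given to 1 of them. Over the whole V exon, Igkv17-127 and Igkv17-121 shared 98.0% of aligned bases, Igkv10-94 and Igkv10-95 97.0%, and Igkv1-117 and Igkv1-110 96.8%. The ends of Igkv10-94 and Igkv10-95 printed above are the same sequence. By contrast, the nearest annotated Igkv gene to Igkv12-89 was Igkv12-46 at 85.9% identity, and to Igkv4-91 it was Igkv4-60 at 88.1%.

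Library totals ran from 9.35e+06 to 7.24e+07 UMIs, and libraries held 212 to 5533 B cells with a median of 3951 to 16126 UMIs per cell. Of B-cell markers that the rule for B cells did not use, Ms4a1 (CD20) was in 50.2% to 95.9% of the B cells of a library, Pax5 in 23% to 57.9% and Cd22 in 13.9% to 48.1%. S100a8, a neutrophil gene, was in 0 to 29.4% of them (median 2.58%), highest in the M0244 spleen, and its part in the results was not tested. Free RNA was gauged in T cells, of which 0 to 23.9% per library held 3 or more UMIs of the library's leading Igkv gene, with a median of 0.481% over libraries. T cells held a median of 2821 to 6002 UMIs. The highest T-cell shares were in Eµ-PRMT5/TCL1 spleen 4 (23.9%) and Eµ-TCL1 lymph node 2 (7.87%). B cells of different libraries shared 713 droplet barcodes over 190 pairs of libraries, where 718 would be shared if barcodes were drawn independently. Both libraries of mouse M1040 stood apart from the others in light chain class, as described below, and the differences in leading share and Igkv level that hold them are given with and without them. Although the kit primes from the 3′ end of the RNA, where Igkc lies, B cells held 5.34 to 102.3 Igkv UMIs for each Igkc UMI.

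A single Igkv gene held most typed B cells in most libraries (plot of Igkv use). The leading gene took more than 50% of the typed B cells in 15 of 20 libraries and more than 90% in 8. In 9 of the 13 mice at least 1 library was led by more than 50%. Over libraries the leading share had a median of 80.9%, and of 87.6% without M1040. In M0228 and M0322 the same cells held a pair of Igkv genes, and with each pair taken as 1, a value added after seeing the data, 12 libraries were above 90% and the median was 95.9%.

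**Figure D1:**
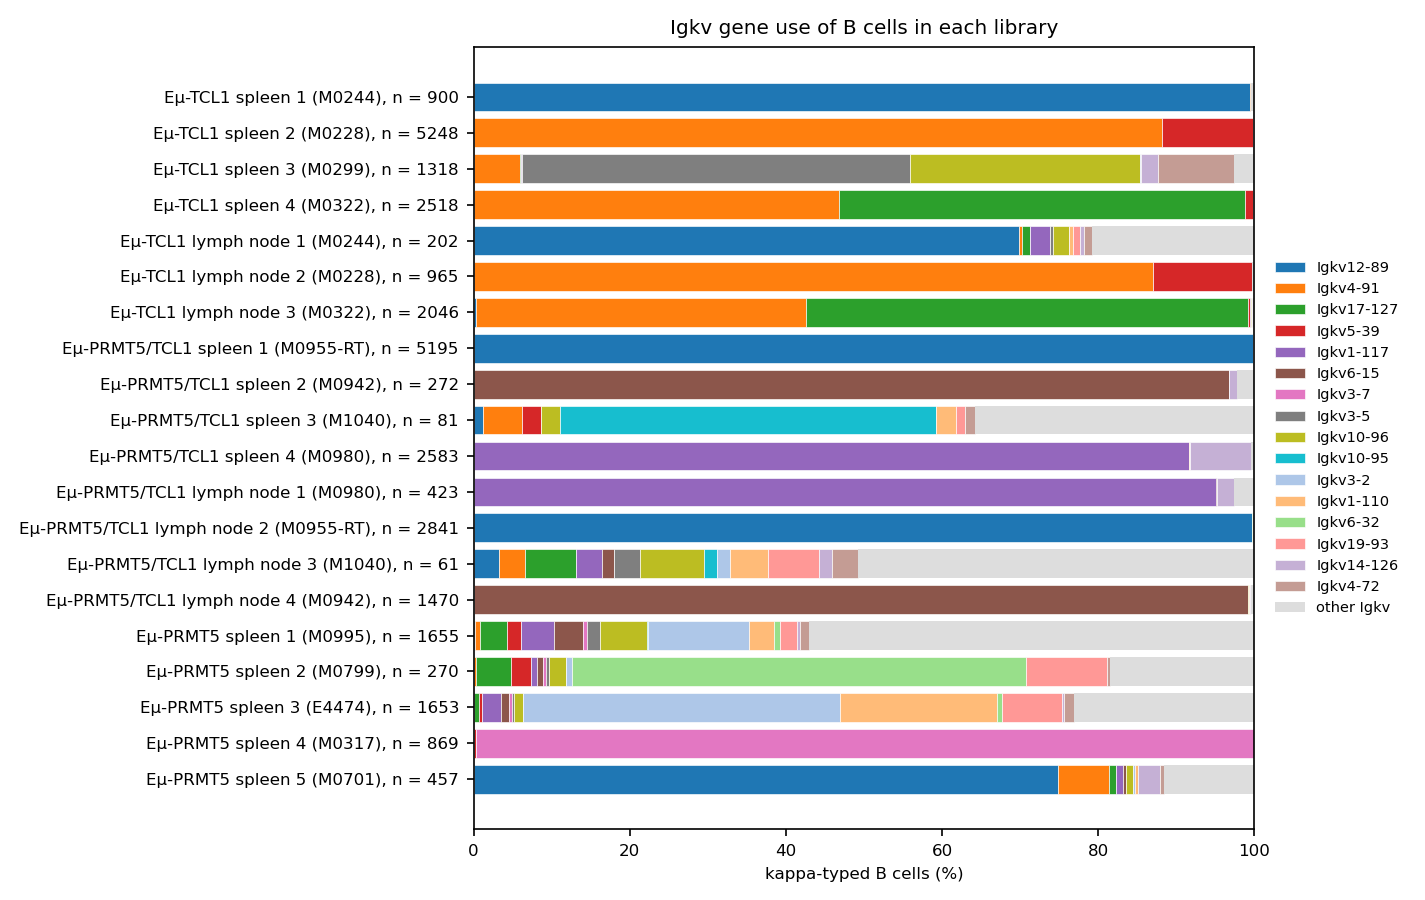
Share of kappa-typed B cells (%) by Igkv gene, 1 bar per library with its number n of typed cells; each color is 1 gene and gray is the sum of all other Igkv genes. Most bars are filled by 1 color, Igkv12-89 fills most of the bar in 3 mice of 3 genotypes, and Eµ-PRMT5 spleen 1 and Eµ-PRMT5/TCL1 lymph node 3 are the most mixed.

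In the Eµ-TCL1 spleens the leading gene took 99.4% of typed cells in M0244 (Igkv12-89, 95% Wilson interval 98.7 to 99.8, 900 typed cells). In M0228 it took 88.1% (Igkv4-91, interval 87.2 to 89, 5248 typed cells). It took 49.6% in M0299 (Igkv3-5, interval 46.9 to 52.3, 1318 typed cells) and 52.1% in M0322 (Igkv17-127, interval 50.1 to 54.0, 2518 typed cells). Thus by typed cells no Eµ-TCL1 spleen shared its leading gene with another, whereas by UMIs Igkv4-91 led in both M0228 and M0322. The intervals cover counting error only. In the 3 Eµ-TCL1 lymph nodes the same genes led, with 69.8% Igkv12-89 in M0244, 87.0% Igkv4-91 in M0228 and 56.6% Igkv17-127 in M0322.

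The runner-up was large in M0322, M0228 and M0299, but in the M0244 lymph node it was Igkv1-117 with 2.48%. In M0322 Igkv4-91 took 46.8% of typed cells in spleen and 42.2% in lymph node, and in M0228 Igkv5-39 took 11.7% and 12.6%. In the M0299 spleen Igkv10-96 took 29.5%. These second genes belonged to the same cells in M0322 and M0228 but to other cells in M0299, as the counts of paired transcripts show.

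In the Eµ-PRMT5/TCL1 libraries outside M1040 the leading gene took 91.6% or more of typed cells. Igkv12-89 took 99.8% of typed cells in the M0955-RT spleen (interval 99.7 to 99.9, 5195 cells) and 99.6% in its lymph node. Igkv6-15 took 96.7% in the M0942 spleen (interval 93.8 to 98.2, 272 cells) and 99.2% in its lymph node. Igkv1-117 took 91.6% in the M0980 spleen (interval 90.5 to 92.6, 2583 cells), beside 7.86% Igkv14-126, and 95% in its lymph node.

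Eµ-PRMT5 spleens ranged from a mixed to a nearly uniform repertoire. Igkv3-2 led M0995 with 13% (interval 11.5 to 14.7, 1655 cells) and E4474 with 40.7% (interval 38.3 to 43.0, 1653 cells). Igkv6-32 led M0799 with 58.1% (interval 52.2 to 63.9, 270 cells). Igkv3-7 took 99.7% of M0317 (interval 99.0 to 99.9, 869 cells), and Igkv12-89 took 74.8% of M0701 (interval 70.7 to 78.6, 457 cells). The runners-up were Igkv10-96 in M0995 (5.92%), Igkv1-110 in E4474 (20.1%), Igkv19-93 in M0799 (10.4%) and Igkv4-91 in M0701 (6.56%).

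To set libraries with unequal numbers of cells side by side, the number of different Igkv genes expected in 60 typed cells was computed. It was 32.8, 16.4, 17, 1.19 and 11.0 genes in Eµ-PRMT5 spleens 1 to 5, and 1.33, 2.10, 6.46 and 2.54 genes in Eµ-TCL1 spleens 1 to 4. With both transgenes it was 1.09, 2.80, 22.1 and 2.32 genes, of which 22.1 belongs to M1040. Thus 4 of 5 Eµ-PRMT5 spleens lay above every Eµ-TCL1 spleen, and the remaining one, M0317, lay below all of them.

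Of the 17 genes that took at least 5% of typed cells in any library, 6 did so in 2 or more mice, and 2 led libraries of 2 or more mice. Igkv12-89 led in 3 mice, M0244 (Eµ-TCL1), M0955-RT (Eµ-PRMT5/TCL1) and M0701 (Eµ-PRMT5), with 9409 typed cells in all. In the B cells of those mice it held 15741 and 10603 CPM (UMIs of the gene scaled to the same total of B-cell UMIs in every library; spleen and lymph node of M0244), 14563 and 13858 (M0955-RT) and 11479 (M0701). In the other 15 libraries it held at most 98.3 CPM, in the lymph node of M0322.

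Igkv4-91 passed 5% in 4 mice, 3 of them Eµ-TCL1 (M0228, M0322 and M0299) and 1 Eµ-PRMT5 (M0701). Its share of typed cells was 88.1% and 87.0% in spleen and lymph node of M0228, 46.8% and 42.2% in M0322, 5.99% in M0299 and 6.56% in M0701. It held 4.94% and 3.28% of the few typed cells of M1040, and at most 0.544% in any other library.

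The remaining 4 recurrent genes were less frequent. Igkv10-96 passed 5% in M0299 (29.5%), M0995 (5.92%) and the M1040 lymph node (8.20%, 5 of 61 typed cells). Igkv19-93 passed it in M0799 (10.4%), E4474 (7.68%) and the M1040 lymph node (6.56%, 4 of 61 cells), and without M1040 both still did so in 2 mice. Igkv3-2, the Igkv gene nearest but one to the J segments, did so in M0995 and E4474 only, and Igkv17-127 in M0322 and in the M1040 lymph node (6.56%), so that 5 genes recurred without M1040. The 5% rule itself draws the line between Igkv10-96 in M0995 (5.92%) and genes just outside it, such as Igkv17-127 in M0799 (4.44%).

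Counting UMIs rather than cells gave another leading gene in 6 libraries. In M0322 Igkv4-91 held 60.2% of Igkv UMIs in spleen and 66.0% in lymph node although Igkv17-127 led by cells. In M0799 Igkv17-127 held 42.6% of Igkv UMIs but 4.44% of typed cells, and 12 B cells with heavy chain gene Ighv5-9-1 held 19423 of its UMIs. In M0995 Igkv17-121 held 28.8% of Igkv UMIs, in E4474 Igkv1-110 held 38.4%, and in the M1040 lymph node Igkv4-91 held 39.1%. For this reason shares of cells, not UMIs, were used to describe repertoires.

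Both libraries of M1040 (Eµ-PRMT5/TCL1) were short of kappa-typed cells. Only 61 of 395 B cells in its lymph node (15.4%) and 81 of 1492 in its spleen (5.43%) were typed, whereas 88.0% to 99.7% were typed in the other libraries. Lambda V genes were at 3 or more UMIs in 73.2% and 86.5% of its B cells, against 0.614% to 8.72% elsewhere. Lambda V genes without 3 Igkv UMIs were seen in 284 and 1245 of its B cells, and Iglv1 held 9632 and 41921 UMIs. Its leading heavy chain gene was Ighv1-9, in 243 lymph node and 1264 spleen cells, of which 3 and 17 were kappa-typed. The Igkv repertoire of M1040 was therefore that of a minority of its B cells.

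Whether genotype or tissue went with a more dominant Igkv gene was tested over libraries, by exact two-sided permutation of the difference in means, with the Benjamini-Hochberg adjustment over 12 tests. The leading share averaged 57.3% ± 32.9 (SD, n = 5) in spleens of Eµ-PRMT5 mice, 84.1% ± 24.2 (n = 4) in those with both transgenes and 72.3% ± 25.2 (n = 4) in those of Eµ-TCL1 mice. None of the differences passed the test. Eµ-PRMT5 minus Eµ-TCL1 was -15.1 percentage points (exact p = 0.468, adjusted 0.646), Eµ-PRMT5/TCL1 minus Eµ-TCL1 was 11.8 points (exact p = 0.571, adjusted 0.665; -0.0795 where 80% of Igkv UMIs were required of the leading gene), and Eµ-PRMT5/TCL1 minus Eµ-PRMT5 was 26.8 points (exact p = 0.214, adjusted 0.514). Lymph nodes averaged 75.5% ± 44.9 (n = 4) in Eµ-PRMT5/TCL1 and 71.2% ± 15.2 (n = 3) in Eµ-TCL1 mice, a difference of 4.35 points (exact p = 0.914, adjusted 0.914). Without M1040 the Eµ-PRMT5/TCL1 means were 96.0% ± 4.16 in spleen and 98.0% ± 2.54 in lymph node (n = 3 each). The lymph node difference was then 26.8 points, with groups that did not overlap (exact permutation p = 0.10, the smallest that 3 against 3 allows, adjusted 0.300). The spleen differences were then 23.7 points from Eµ-TCL1 (exact p = 0.229, adjusted 0.457) and 38.8 points from Eµ-PRMT5 (exact p = 0.0893, adjusted 0.300). In the Eµ-TCL1 mice M0228 and M0322 the leading share comes from cells that mostly held transcripts of a pair of Igkv genes, which the typing rule divided. With each pair taken as 1 it was 99.7% and 98.9% in their lymph nodes and 99.8% and 98.8% in their spleens, and the Eµ-TCL1 means were 86.9% ± 24.9 in spleen and 89.5% ± 17 in lymph node. The difference between both transgenes and Eµ-TCL1 then turned to -2.86 points in spleen (exact p = 0.543, adjusted 0.651) and -13.9 points in lymph node (exact p = 0.829, adjusted 0.829), and Eµ-PRMT5 minus Eµ-TCL1 was -29.7 points (exact p = 0.190, adjusted 0.429). With M1040 left out as well, both transgenes minus Eµ-TCL1 was 9.11 points in spleen (exact p = 0.914, adjusted 0.914) and 8.5 in lymph node (exact p = 0.70, adjusted 0.84), and these groups overlapped. In the 7 mice with both tissues, lymph node minus spleen was -8.62 points (exact sign-flip permutation p = 0.453, adjusted 0.646, higher in lymph node in 3 of 7 mice), and -3.40 points without M1040.

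The summed Igkv level in B cells was lowest in both libraries of M1040. It was 105 to 223 Igkv UMIs per 10000 UMIs in Eµ-PRMT5 spleens (median 132), 7.57 to 162 in spleens with both transgenes (median 95.4), where the lowest is M1040, and 86.7 to 187 in Eµ-TCL1 spleens (median 125). In lymph nodes it was 121, 365 and 175 in Eµ-TCL1 mice 1 to 3 and 42.6, 144, 24.7 and 120 in Eµ-PRMT5/TCL1 mice 1 to 4. Groups overlapped in each comparison. On the log2 scale the differences were 0.24 for Eµ-PRMT5 minus Eµ-TCL1 spleens (exact p = 0.484, adjusted 0.646) and -1.26 for Eµ-PRMT5/TCL1 minus Eµ-TCL1 spleens (exact p = 0.314, adjusted 0.629). They were -1.50 for Eµ-PRMT5/TCL1 minus Eµ-PRMT5 spleens (exact p = 0.151, adjusted 0.452) and -1.60 for Eµ-PRMT5/TCL1 minus Eµ-TCL1 lymph nodes (exact p = 0.143, adjusted 0.452). Lymph node minus spleen was 0.41 (exact p = 0.609, adjusted 0.665), although the level was higher in lymph node in only 3 of 7 mice. Without M1040 the differences with both transgenes were smaller, at -0.34 from Eµ-TCL1 spleens (exact p = 0.743, adjusted 0.891), -0.58 from Eµ-PRMT5 spleens (exact p = 0.411, adjusted 0.646) and -1.13 in lymph nodes (exact p = 0.200, adjusted 0.457), and lymph node minus spleen was 0.19 (exact p = 0.969, adjusted 0.969). The share of B cells with 3 or more Igkv UMIs was 6.84% in the M1040 spleen and 16.7% in its lymph node, and 88.1% to 99.8% in the other libraries. The next lowest levels, 38.2 in the M0942 spleen and 42.6 in the M0980 lymph node, stood beside shares of 90.1% and 97.0%.

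Gene by gene, no Igkv gene passed the test in any of 5 comparisons. UMIs summed over the B cells of each library were compared by edgeR's quasi-likelihood test with the Benjamini-Hochberg adjustment over all genes tested, and a gene was called at an adjusted p under 0.05. Of 58 Igkv genes tested, 0 were called in Eµ-PRMT5 against Eµ-TCL1 spleens, where 0.0257% of all genes tested were called. The same 58 gave 0 calls where spleens with both transgenes were set against Eµ-TCL1 spleens (background 0.00857%) and 0 where they were set against Eµ-PRMT5 spleens (background 0%). In the lymph nodes 0 of 20 were called (background 0%), and in lymph node against spleen 0 of 50 (background 0.0562%). At an unadjusted p under 0.05 the counts were 34, 14, 41, 3 and 17 Igkv genes, in that order, beside 16.9%, 4.59%, 9%, 6.75% and 11.7% of all genes tested. DESeq2 called 20, 1, 19, 0 and 1 Igkv genes, beside 5.44%, 0.188%, 1%, 0.54% and 2.49% of all genes. The 20 and the 19 were all higher in Eµ-PRMT5 spleens. Leaving out M0317, the Eµ-PRMT5 spleen with a single leading gene, edgeR called 15 Igkv genes between Eµ-PRMT5 and Eµ-TCL1 spleens. All 15 were higher in Eµ-PRMT5 spleens. Of all genes, 316 of 11411 (2.77%) were called, so calls rose over all genes. The number of Igkv genes tested in this fit was not recorded, so their share called is not given. With any other single spleen left out instead, 0 Igkv genes were called in this comparison. The filter on low counts keeps genes frequent in either group, so the 15 are a description only. In the same fit edgeR called 1 Igkv gene, the single call over all genes (0.00876%), between spleens with both transgenes and Eµ-PRMT5 spleens.

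The tested Igkv genes are those that passed a filter on low counts, so their medians are a description only. The median log2 fold change was 3.78 in Eµ-PRMT5 over Eµ-TCL1 spleens and -5.56 for both transgenes over PRMT5 alone, beside 0.04 and -0.06 over all genes tested. In the other comparisons it was -0.44 (Eµ-PRMT5/TCL1 over Eµ-TCL1 spleens), -0.41 (the same in lymph nodes) and 1.60 (lymph node over spleen), beside 0.00, 0.02 and 0.00. Without M1040 these 3 medians were -1.24, -0.90 and 0.45, over 68, 16 and 39 Igkv genes tested, and that of both transgenes over PRMT5 alone was -7.10 over 68. The comparisons with the largest of these medians share the Eµ-PRMT5 libraries. The filter keeps a gene that is frequent in either group, and many of these genes have near 0 UMIs in the other, so their fitted fold changes depend on the prior count.

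Igkv3-2 shows the spread behind these tests. It was at 626, 42.8, 4362, 0.596 and 5.46 CPM in Eµ-PRMT5 spleens 1 to 5, at most 0.826 in spleens with both transgenes and at most 0.908 in the 4 Eµ-TCL1 spleens. It was at 3 or more UMIs in 269 of 1869 B cells of M0995 and 695 of 1746 of E4474, but in 3 of 284 of M0799. It was near the Eµ-TCL1 level in M0317. Its fitted log2 difference from Eµ-TCL1 was 12.01 ± 2.81 (SE), with an edgeR adjusted p of 0.110. The SE here and below is the absolute log2 difference divided by the square root of the test's F statistic. It is a rough measure for genes near 0 UMIs in 1 group. Igkv19-93 was at 81.4, 520, 379, 0.728 and 0.862 in Eµ-PRMT5 spleens and at most 6.44 in Eµ-TCL1 spleens, with a log2 difference of 6.25 ± 1.81 and an edgeR adjusted p of 0.139. Igkv12-89, by contrast, differed by -0.78 ± 2.92 (edgeR adjusted p = 0.924), with 1 of 5 and 1 of 4 spleens at a high level.

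Other genes of light chain expression and assembly were read from a list of 36 that included constant and lambda genes, surrogate light chain genes, recombination and end-joining enzymes and the transcription factors that act at the kappa enhancers. None was called in any comparison, of 33 tested in each spleen comparison, 29 in the lymph nodes and 33 between tissues. Over all genes tested, 0% to 0.0562% were called in these comparisons, so few calls would be seen in any list of this size. The list's median log2 difference was -0.19, 0.00 and 0.19 in the spleen comparisons (Eµ-PRMT5 over Eµ-TCL1, Eµ-PRMT5/TCL1 over Eµ-TCL1 and Eµ-PRMT5/TCL1 over Eµ-PRMT5), -0.12 in lymph nodes and -0.04 between tissues. Without M1040 it was -0.09 and 0.17 in the spleen comparisons that hold that mouse, -0.06 in lymph nodes and 0.03 between tissues. Igkc, the kappa constant exon, was lowest in the M1040 spleen (43.3 CPM) and was at 200 and 158 in the M0942 and M0980 spleens, against 611 to 3184 in the other spleens. Its log2 difference from Eµ-TCL1 in the spleens with both transgenes was -1.88 ± 0.69 (SE, edgeR adjusted p = 1.00), and -1.52 ± 0.61 without M1040 (edgeR adjusted p = 0.990). Rag1, which cuts the locus for joining, was at 0 to 4.22 CPM in all libraries. Irf4, a factor of the kappa enhancers and of plasma cells, differed by 1.26 ± 0.38 between Eµ-PRMT5 and Eµ-TCL1 spleens (edgeR adjusted p = 0.145).

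Pairing with the heavy chain was read in cells typed by the same rule for both Igkv and Ighv, which were 52.2% to 96.6% of B cells outside M1040 and 7.09% and 4.96% in it. A pair was called recurrent when at least 3 such cells held it in each of 2 or more mice, and 6 pairs met this (plot of recurrent pairs). How many pairs would meet this if the chains paired independently was not computed, and in a mixed repertoire 3 cells is a low bar. Ighv12-3 with Igkv4-91 was the most frequent, with 7341 cells and at least 3 of them in each of 5 mice of 3 genotypes, or 4 mice of 2 genotypes without M1040. It was found in 5242 cells of M0228, 1992 of M0322, 71 of M0299, 29 of M0701 and 5 of M1040. Of the 7380 cells that held Igkv4-91 and were typed for both chains, 7341 (99.5%) carried Ighv12-3, most of them in M0228 and M0322.

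**Figure D2:**
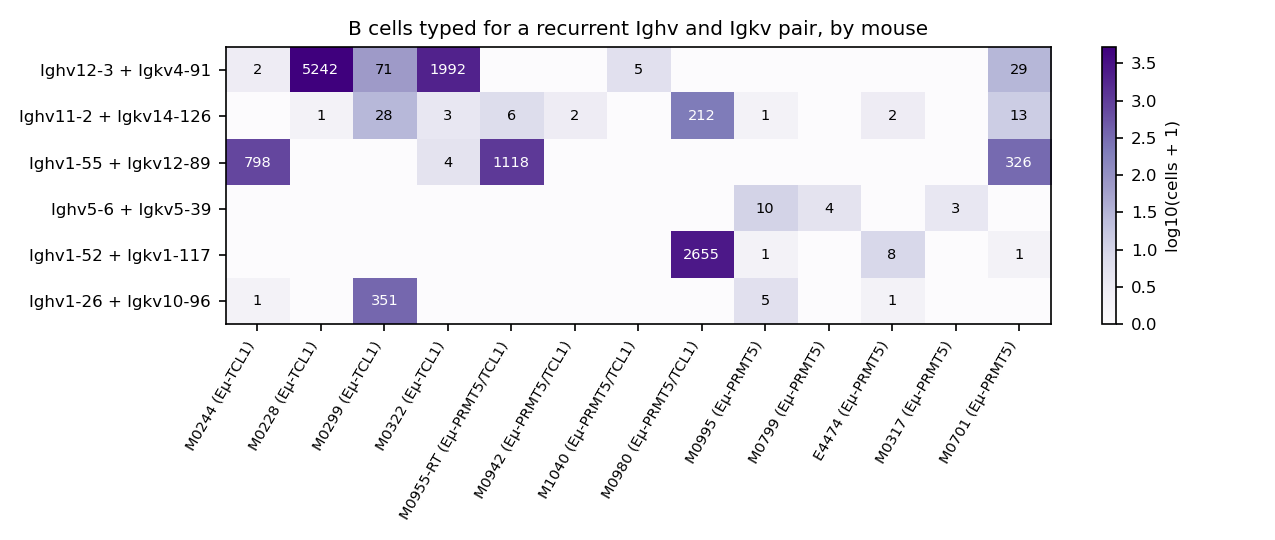
Number of B cells typed for each of the 6 recurrent pairs of an Ighv and an Igkv gene (rows) in each mouse (columns, genotype in brackets); both tissues of a mouse are summed, shading is log10(cells + 1), and blank means 0 cells. Ighv12-3 with Igkv4-91, Ighv11-2 with Igkv14-126 and Ighv1-55 with Igkv12-89 each span all 3 genotypes, the first of them only through the 5 cells of M1040. The last reaches Eµ-PRMT5/TCL1 only in M0955-RT, where most cells with 3 or more Ighv1-55 UMIs also held Ighv8-2.

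With the cells of all mice pooled, most of them from M0980, Ighv11-2 was found almost only with Igkv14-126. Of 278 cells typed for both chains and carrying Ighv11-2, 268 (96.4%) held Igkv14-126, and the same share of Igkv14-126 cells (268 of 278) carried Ighv11-2. The pair was seen in 9 mice, in 5 of them with at least 3 cells: 212 cells in M0980, 28 in M0299, 13 in M0701, 6 in M0955-RT and 3 in M0322. In none of these mice did it lead a library. In the mixed repertoires of E4474 and M0995, 2 of 4 and 1 of 2 Ighv11-2 cells held Igkv14-126. The 7 cells of M0980 in which Ighv11-2 went with Igkv1-117 were in the library whose T cells held that gene most often.

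Ighv1-55 with Igkv12-89 held 2246 cells, 798 in M0244, 1118 in M0955-RT, 326 in M0701 and 4 in M0322. In those 4 mice 798 of 798, 1118 of 1119, 326 of 327 and 4 of 4 Ighv1-55 cells had Igkv12-89. In M0995 and E4474, whose repertoires were mixed, 18 and 10 Ighv1-55 cells held 16 and 10 different Igkv genes. The 3 other recurrent pairs were Ighv5-6 with Igkv5-39 (17 cells in 3 Eµ-PRMT5 mice), Ighv1-52 with Igkv1-117 (2655 cells in M0980 and 8 in E4474) and Ighv1-26 with Igkv10-96 (351 cells in M0299 and 5 in M0995). The 5 cells of M0995 were 9.26% of its 54 kappa-typed Ighv1-26 cells, where Igkv10-96 took 5.92% of all its typed cells.

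The cells with Ighv12-3 were not all typed for the same light chain gene. In M0317 they were typed for Igkv3-7 in 827 of 827 cells, and none was typed for Igkv4-91. In M1040, M0299, M0322 and M0228 the typing rule chose between Igkv4-91 and another gene that most of these cells held with it. It gave Igkv10-95 in 36 of 41 cells of M1040, Igkv4-72 in 106 of 188 of M0299, Igkv17-127 in 2332 of 4325 of M0322 and Igkv4-91 in 5242 of 5903 of M0228, while 40 of 40 Ighv12-3 cells of the M1040 spleen and 191 of 216 of M0299 held 3 or more UMIs of both genes. Igkv12-89 had more than 1 partner, with Ighv8-2 in 73.2% of its 8421 cells typed for both chains, all of those in M0955-RT.

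M0955-RT cells held both of these heavy chain genes at once. In its spleen 3425 of 3848 cells with at least 3 UMIs of Ighv1-55 (89%) also had at least 3 of Ighv8-2, and 3422 of the 3425 held Igkv12-89. In its lymph node this was 1779 of 1941 cells (91.7%), and 1776 of them held Igkv12-89. Of all its B cells, 4393 of 5213 in spleen and 2460 of 2856 in lymph node had at least 3 UMIs of Ighv8-2. The level of these heavy chain genes in T cells was not read. Ighv8-2 was in 0 cells with 3 UMIs in M0244 and M0701, the other mice led by Igkv12-89.

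The J segment counted in the same cells was the same in some mice that shared a V gene and differed in others. In B and plasma cells with Ighv1-55 and Igkv12-89, all 15 and 92 Igkj UMIs of M0244 (lymph node and spleen) and all 13 of M0701 were Igkj1. In M0955-RT 31 of 33 and 81 of 83 were Igkj2, and its Ighv8-2 cells had 542 of 555 and 946 of 973 as Igkj2. In Igkv6-15 cells of M0942 all 2400 lymph node and 36 spleen UMIs were Igkj5, and in Igkv1-117 cells of M0980 all 9 and 16 were Igkj1. With Ighv12-3 and Igkv4-91, the leading segment was Igkj5 in M0322 (3872 of 4249 in lymph node), Igkj4 in M0228 (47 of 50 in spleen and 26 of 42 in lymph node) and Igkj2 in M0701 (33 of 34) and M0299 (9 of 15). The other 16 UMIs of the M0228 lymph node were Igkj2, which had 0 in its spleen. Most of these cells of M0322, M0228 and M0299 held a second Igkv transcript, as did 16 of 30 Ighv12-3 B cells of M0701. A J UMI therefore cannot be given to Igkv4-91. Cells typed for Igkv17-127 in the M0322 spleen also had mostly Igkj5 (203 of 236). Those typed for Igkv5-39 in the M0228 spleen had Igkj4 (7 of 7). J counts were too few to read in several mice, 0 UMIs among the 835 cells of M0317 for example.

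In several mice most cells with the leading Ighv gene held the transcripts of more than 1 Igkv gene (plot of paired transcripts). Cells of a mouse with the same Ighv gene are called a clone below, although joined sequences were not read. With at least 3 UMIs of each required, Igkv4-91 and Igkv5-39 were together in 5316 of 5533 B cells of the M0228 spleen and in 964 of 1009 of its lymph node. Igkv17-127 and Igkv4-91 were together in 2389 of 2625 B cells of the M0322 spleen and 1843 of 2157 of its lymph node. In M0322 the cells with both had a median of 47 Igkv17-127 and 38 Igkv4-91 UMIs in spleen. Neither gene of such a pair was a minor addition in these mice, and the typing rule divided their clones between 2 genes.

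**Figure D3:**
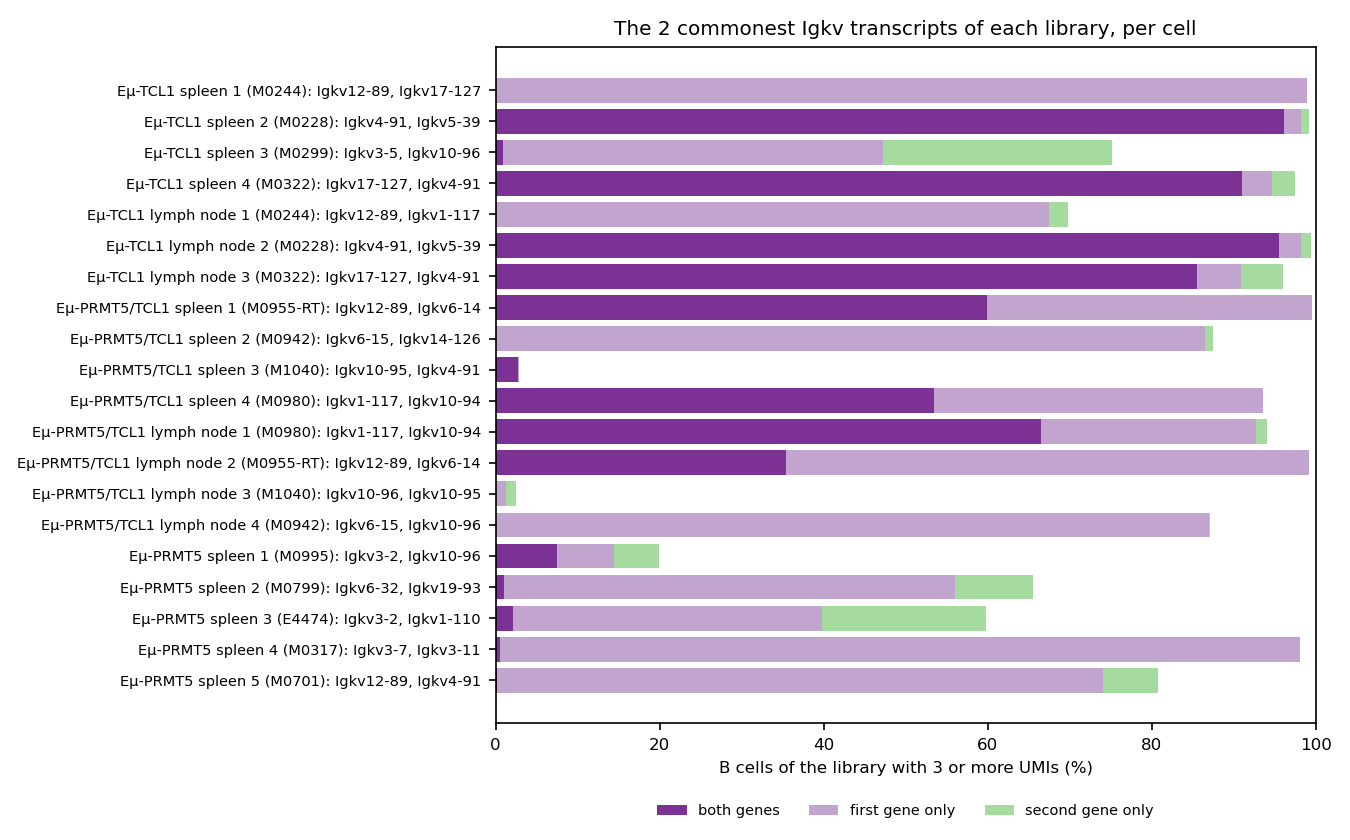
Share of all B cells (%) with 3 or more UMIs of both of the 2 commonest Igkv genes of each library (dark), of the first gene only (light purple) or of the second only (green); the genes are named after each library. Dark bars fill most of M0228 and M0322 and a large part of M0955-RT and M0980 in both tissues, while the 2 genes of M0299 and E4474 are in separate cells.

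A second transcript at a lower level was seen in other mice too. In M0955-RT, where nearly all B cells held Igkv12-89, Igkv6-14 was at 3 or more UMIs in 59.9% of spleen and 35.4% of lymph node B cells. In the cells with both, its median was 5 UMIs beside 57 and 54 of Igkv12-89. In M0980, where most B cells held Igkv1-117, Igkv10-94 was at 3 or more UMIs in 53.4% of spleen and 67.8% of lymph node B cells, with a median of 7 UMIs beside 70.5 and of 8 beside 45. Of T cells, 0 of 178 and 0 of 1019 in the M0955-RT spleen and lymph node held 3 UMIs of Igkv6-14, which allows shares of up to 1.69% and 0.294%. For Igkv10-94 in M0980 these were 0 of 913 and 0 of 96, which allows up to 0.329% and 3.12%. In M0995 140 of 243 cells with Igkv10-96 (57.6%) also held Igkv3-2, with medians of 6 Igkv10-96 and 19 Igkv3-2 UMIs. Of its T cells, 0 of 1424 held 3 UMIs of Igkv10-96, which allows up to 0.211%. In smaller clones, Igkv4-61 and Igkv8-19 were together in 60 of 103 Ighv2-6 cells of E4474, and Igkv4-91 and Igkv4-59 in 16 of 30 Ighv12-3 cells of M0701. Igkv10-95 and Igkv4-91 were together in all 40 Ighv12-3 cells of the M1040 spleen, and Igkv4-72 and Igkv4-91 in 191 of the 216 of M0299.

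The commonest genes of other libraries were mostly in separate cells. In M0299 Igkv3-5 and Igkv10-96 were together in 13 of the 407 cells with the latter (3.19%), and in E4474 Igkv3-2 and Igkv1-110 in 38 of 387 (9.82%). In M0701 1 of 32 cells with Igkv4-91 held Igkv12-89. In M0228 and M0322 the cells with both genes had more UMIs in all than those with 1 of them, with medians of 5922 and 3058 in the M0228 spleen and of 7746 and 3808 in the M0322 spleen. In E4474 the medians were 4172 and 4183.

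Values that bear on a technical origin were read beside these counts. Leaving out the barcodes with the highest doublet scores left the share of Igkv5-39 cells that also held Igkv4-91 at 98.9% in the M0228 spleen, from 99.0%, and the matching share in the M0322 spleen at 96.9%, from 96.9%. This took out only 263 of 5533 and 53 of 2625 B cells, too few to lower such shares by much. Whether doublets add to these counts was therefore not tested by it. T cells holding 3 UMIs of both genes were 0.145% in the M0228 spleen and 0.105% in the M0322 spleen, and 0.219% and 0.16% in their lymph nodes. The V exons of these pairs were not near copies: identity was 65.2% for Igkv4-91 with Igkv5-39, 62.4% with Igkv17-127 and 67.5% with Igkv10-95, 68.1% for Igkv12-89 with Igkv6-14 and 66.0% for Igkv1-117 with Igkv10-94. Closer pairs were Igkv4-91 with Igkv4-72 of M0299 and with Igkv4-59 of M0701, both at 84.1%. In plasma cells of the same clones, both genes were at 3 or more UMIs in 100% of the clone's cells in the M0228 lymph node and in 411 of 411 and 42 of 42 of M0322. In M0955-RT they were in 89.7% (lymph node) and 84.8% (spleen), where Igkv6-14 made up 0.370% and 0.323% of Igkv UMIs, and in the M0980 spleen in 85.3%, where Igkv10-94 made up 0.842%. Which of the transcripts makes the protein was not tested.

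The same Igkv genes were found in both tissues of a mouse. Overlap was taken as the sum over genes of the smaller of the shares of typed B cells in the lymph node and in the spleen, so that 100% is an identical repertoire (plot of overlap). It was 70.1% in M0244, 98.8% in M0228, 94.7% in M0322, 93.8% in M0980, 99.7% in M0955-RT, 96.8% in M0942 and 29.6% in M1040. The overlap of lymph nodes with spleens of other mice had a median of 1.66% over 84 pairs. The highest was 99.4%, between the M0955-RT lymph node and the M0244 spleen, both led by Igkv12-89.

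**Figure D4:**
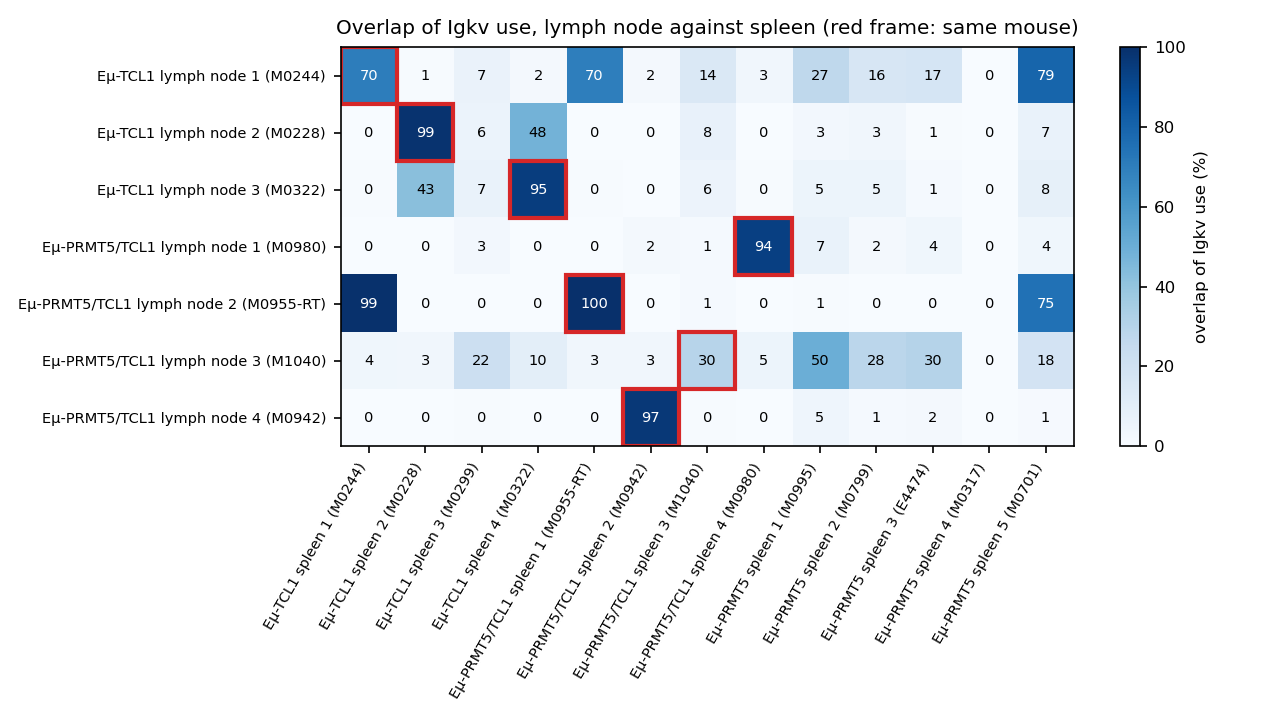
Overlap of Igkv use (%) between each lymph node library (rows) and each spleen library (columns), from 0 (no gene shared) to 100 (identical shares); red frames mark the tissues of the same mouse. Framed cells are at 70.1% or more except M1040 (29.6%), and the other high values join the mice led by Igkv12-89 and those with Igkv4-91.

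Matched tissues averaged 83.4% overlap, 57.9 points above the 25.5% mean over all 576 ways of pairing them within genotype (exact permutation p = 0.00174, the smallest this design allows, adjusted 0.0208). Leaving out any 1 mouse, the difference stayed at 52.0 to 60.4 points, but the smallest p then possible was 0.00694 and the adjusted p was 0.0703. It was 60.4 points without M1040. Since V genes, and not joined sequences, were compared, different clones with the same gene count as a match, as the M0955-RT and M0244 value shows. In M0244, the mouse with the lowest overlap after M1040, typed cells were spread over 39 genes in the lymph node and 6 in the spleen.

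Plasma cells carried the leading Igkv gene of the B cells beside them in some libraries and another gene in others. Among the 14 libraries with at least 20 typed plasma cells, from 11 mice, the leading gene by typed cells was the same as in B cells in 8 (plot of plasma and B cells). In M0980 668 of 669 spleen plasma cells held Igkv1-117, in the M0244 spleen 486 of 486 held Igkv12-89, and in the M0955-RT spleen 183 of 183 did. In the M0228 lymph node all typed plasma cells held Igkv4-91 (interval 98.3 to 100).

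**Figure D5:**
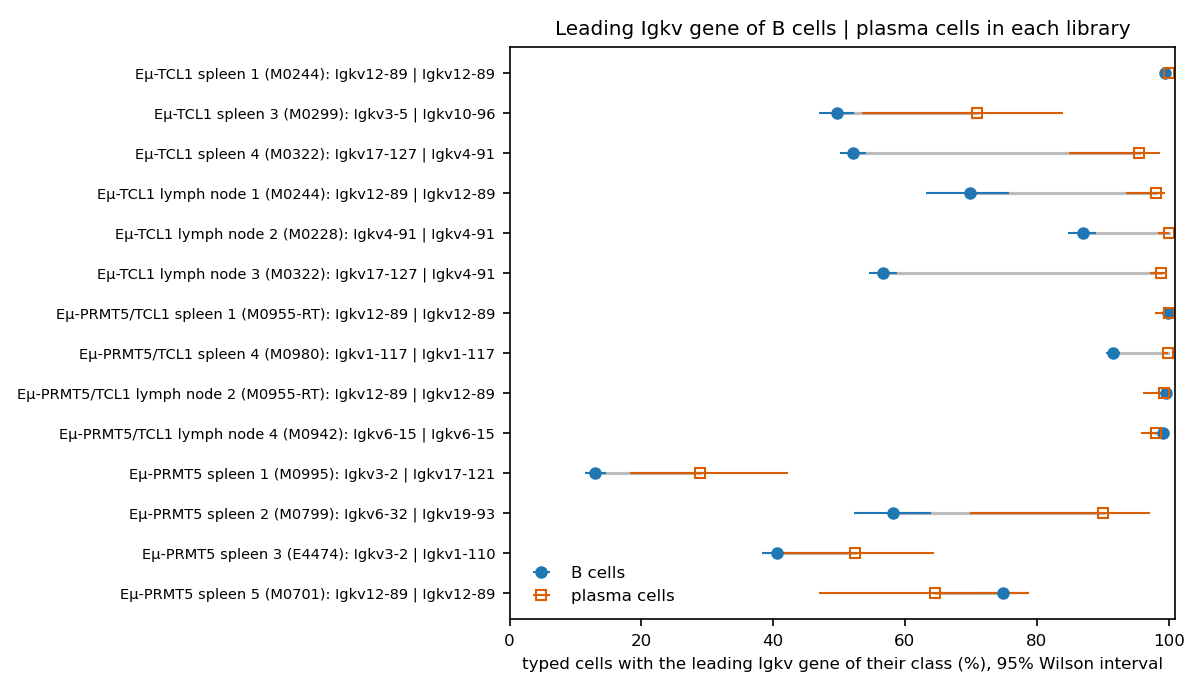
Share (%) of typed B cells (filled circles) and typed plasma cells (open squares) that hold the leading Igkv gene of their own class, in the 14 libraries with at least 20 typed plasma cells; whiskers are 95% Wilson intervals and the leading genes of B cells and plasma cells are named after each library. Plasma cells are the more uniform class in most libraries, and the leading genes by typed cells differ in M0299, M0322, M0995, M0799 and E4474.

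By typed cells another gene led in the plasma cells of 5 mice. By Igkv UMIs the same gene led both classes in 3 of these mice. It was Igkv4-91 in both tissues of M0322, Igkv17-121 in M0995 and Igkv1-110 in E4474. In M0799 and M0299 the leading gene by UMIs differed as well. In M0322 411 of 416 lymph node and 42 of 44 spleen plasma cells were typed Igkv4-91, where Igkv17-127 led the B cells, and the cells held both transcripts: Igkv17-127 made up 9.89% of the Igkv UMIs of the clone's lymph node plasma cells and 32.3% of those of its B cells. In M0799 Igkv19-93 took 18 of 20 plasma cells but 10.4% of B cells, and Igkv6-32, the leading gene of its B cells, took 0 of 20, which allows up to 15%. In M0299 Igkv10-96 took 71.0% of 31 plasma cells and 29.5% of B cells, and in E4474 Igkv1-110 took 52.5% of 61 and 20.1%. In M0995 Igkv17-121 took 28.8% of 52 plasma cells and 2.84% of B cells. In M0799 the plasma interval for Igkv19-93 was 69.9 to 97.2.

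Within libraries the leading share was 13.4 percentage points higher in plasma cells than in B cells (81.9% against 68.4% over 11 mice, higher in 8 of 11, SD of the difference 15). The exact sign-flip permutation test over mice gave p = 0.0117, and 0.0703 after adjustment, which misses the threshold. The largest difference, 42.8 points, was that of M0322, where, as in M0228, the typing rule divided the B cells of a clone between a pair of genes held in the same cells. With the pair taken as 1 in both mice the difference was 8.25 points (exact permutation p = 0.0518, adjusted 0.311, higher in 7 of 11). Without M0322 it was 10.5 points (exact permutation p = 0.0234, adjusted 0.141). Leaving out M0701 made it 15.8 points with an adjusted p of 0.0469. The B-cell marker Ms4a1 was found in 34.4% to 81.0% of the plasma cells of a library, beside Xbp1, a plasma cell transcription factor, in 96.0% to 100%. Cd3g, a T-cell receptor chain, was at 1 or more UMIs in 2.19% to 82.6% of them, highest in the M0244 lymph node and 77.2% in its spleen, and its part in these results was not tested.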

How the data were processed

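Live cells of spleens and sub-mandibular lymph nodes were profiled with the 10x 3′ kit. The deposited files are raw tables of UMI counts, with genes in rows and every barcode in columns, made by the authors with Cell Ranger on GRCm38 (the submitters' processing notes name Cell Ranger 2.0.1 and Seurat 2.2.1, and the matrix headers 3.1.0) with no normalization. Barcodes were kept from the counts by the thresholds given above. Library totals were 9.35e+06 to 7.24e+07 UMIs. Intervals are 95% Wilson intervals, and a count of 0 was given an upper limit of 3 counts of the total. Both cover counting error only.

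The members and the gene lists were chosen with earlier results of these data known. Named genes were the leading Igkv gene of each library, a runner-up with at least 5% of typed cells, the commonest partner of the leading Ighv gene, the leading gene of plasma cells and the recurrent genes. Other genes named in the text, such as the second transcripts, were chosen after their values were seen.

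Counts summed over the B cells of each library were tested with edgeR 4.0.16 (filterByExpr, TMM, quasi-likelihood) in R 4.3.3, with DESeq2 1.42.0 as an alternative. Spleens were fitted in 1 model, lymph nodes in another, and lymph node against spleen with the mouse as a block. The mouse number in the sample titles gives the pairing, and deviations of a mouse's tissues correlated at r = 0.193 to 0.765. Single values were tested by exact permutation (SciPy 1.17.1). Each mouse is 1 replicate. The scripts were tested on simulated data. Doublets were scored with Scrublet in scanpy 1.11.5, whose automatic threshold marked under 0.5% of barcodes in 17 of 20 libraries, so the highest scores were left out as an alternative chosen after seeing the data, as was the fit without M1040. V exons were aligned with Biopython 1.88. Columns left unused numbered 0.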

Additional observations from a re-analysis of the deposited data

Results flagged for a closer look

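Dixon's test was run on 24 sets of 4 or 5 libraries of 1 group and marked 10 values as far from the rest of their group, where chance alone marks about 1 in 20. Of the 10, 8 came from mouse M1040 (Eµ-PRMT5/TCL1), whose B cells mostly held a lambda chain.

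The leading Igkv share was 8.20% in the M1040 lymph node, against 95% to 99.6% in the other Eµ-PRMT5/TCL1 lymph nodes, and 48.1% in its spleen, against 91.6% to 99.8%. The number of Igkv genes expected in 60 typed cells was 34.7 in its lymph node, against 1.21 to 2.82, and 22.1 in its spleen, against 1.09 to 2.80. The share of B cells typed for an Igkv gene was 15.4% in its lymph node, against 88.0% to 99.5%, and 5.43% in its spleen, against 90.1% to 99.7%. The share of B cells with 3 or more lambda V UMIs was 73.2% in its lymph node, against 0.910% to 1.20%, and 86.5% in its spleen, against 1.21% to 1.32%.

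The ratio of Igkv to Igkc UMIs in B cells was 30.6 in the M0322 spleen, against 7.63 to 10.5 in the other Eµ-TCL1 spleens. In the M0980 spleen it was 102.3, where its group otherwise held 17.5 to 19.1. The cause was not tested.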

How the results depend on the processing

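Over all results and alternatives, 257 values were scored as unchanged, 10 counts moved, 8 reversed, 8 lost the threshold and 1 gained it. For tested differences, unchanged means the same direction and side of the threshold, which only the match between tissues had passed to begin with. For the number of Igkv genes called, it means that the count stayed at 0. The count of Igkv genes called by edgeR, 0 in each comparison, was 20 with DESeq2 for Eµ-PRMT5 against Eµ-TCL1 spleens (635 of 11673 genes in all), 1 for Eµ-PRMT5/TCL1 against Eµ-TCL1 spleens (22 genes) and 19 for Eµ-PRMT5/TCL1 against Eµ-PRMT5 spleens (117 genes). For lymph node against spleen it was 1 with DESeq2 (Igkv10-96, 310 of 12453 genes in all) and 3 with no filter on low counts (95 of 18866 genes). Leaving out 1 library or mouse, the counts ranged from 0 to 15 for Eµ-PRMT5 against Eµ-TCL1 spleens (15 without M0317, of 316 genes), from 0 to 1 for Eµ-PRMT5/TCL1 against Eµ-PRMT5 spleens (1 without M0317) and from 0 to 1 for lymph node against spleen (1 without M0228 or M0980). Replicate numbers of different genotypes name different mice, and same-numbered spleens had a median correlation of 0.04. With the replicate block the count for Eµ-PRMT5 against Eµ-TCL1 spleens was 1 (Igkv3-2, of 41 genes), and it stayed 0 in the other comparisons fitted so.

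The leading share of Eµ-PRMT5/TCL1 minus Eµ-TCL1 spleens was -0.0795 points where 80% of Igkv UMIs were required, and -2.86 with the pair of genes of M0228 and of M0322 each taken as 1, an alternative added after seeing the data that made the lymph node difference -13.9 points. The log2 level of Eµ-PRMT5 minus Eµ-TCL1 spleens was -0.088 as a mean over cells. The lymph node difference in leading share ranged from -3.69 to 26.8 points as 1 library was left out. The match between tissues ranged from 52.0 to 60.4 points without 1 mouse, with an adjusted p of 0.0703 by exact permutation in each case, where the smallest p possible was 0.00694. It was 60.4 without M1040. The plasma minus B difference ranged from 10.5 to 15.8 points, and passed the threshold without M0701. Apart from the construction of the smaller permutation sets, the cause was not tested. Small numbers of typed cells limit M1040, and few plasma cells limit M0799.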
